A study of Mus musculus with 12 samples.

Results

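The genes described here are the feedback inhibitors of NFκB signaling, in cultured mouse pancreatic cancer cells. They are Nfkbia, Nfkbib, Nfkbie, Nfkbiz, Bcl3, Tnfaip3, Tnip1, Tnip2 and Cyld, and they were chosen by name. Every probe set that the platform annotation pairs with exactly 1 of these symbols was taken, which gave 21 of the 45037 probe sets tested and 9 of the 18193 genes. Nfkbia has 5 probe sets, Cyld 4, Nfkbiz 3, Nfkbib, Nfkbie and Tnfaip3 2 each, and Bcl3, Tnip1 and Tnip2 1 each.

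The data are Affymetrix mouse arrays, on which 1 or more sets of short probes stand for a transcript, in 4 groups of 3 arrays each. The fl-CCs and mt-CCs are primary cancer cells isolated from pancreatic tumors of mice that carried Pdx1-Cre, active in the pancreatic lineage, together with an inducible K-ras G12D allele. In fl-CCs the tumor also carried LSL-Trp53 fl/+, a deletable p53 allele, and in mt-CCs LSL-Trp53 R172H/+, a mutant one. The remaining groups are fl-CCs transfected with an empty vector (fl-CCs + EV) or with human p53 R175H (fl-CCs + p53 R175H), both grown with 0.6 mg/ml of the selection drug G418. Each genotype is represented by 1 line, so the p-values speak to variation among its cultures, not among tumors. The p53 gene itself was not analysed here and the human transgene has no probe set that measures it.

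NFκB transcription factors are held in the cytoplasm by IκB proteins, which are phosphorylated and degraded when a receptor for TNF, interleukin-1 or a bacterial product signals. Freed NFκB then switches on genes for some of its own inhibitors, so that the response ends itself. New IκB binds NFκB again. The ubiquitin-editing enzyme A20 and the deubiquitinase CYLD strip the ubiquitin chains on which the upstream kinases assemble. The inhibitors are therefore read both as brakes on the pathway and as targets of it, and mRNA levels alone do not tell how much IκB protein is present or how fast it is degraded.

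Because several of these genes are themselves NFκB targets, the bases around their start sites were searched for the κB consensus, the 10-letter binding motif of NFκB, on both strands. The windows reach from 250 bases before to 50 bases after the start and come from RefSeq promoters of assembly GRCm38.p6, which hold 8 of the 9 genes; Nfkbiz is not among them. A match was found for 6 genes, Nfkbia, Nfkbie, Bcl3, Tnfaip3, Tnip1 and Cyld, and none for Nfkbib and Tnip2. Tnfaip3 has 2 windows, and the one at chr10:19011914-19012213 holds no match. Of all 32851 promoter windows of that length 4.51% hold a match, and of all 27025 genes 5.14%. Every consensus match is also a match to the looser form GGGNNNNNCC, so these 6 genes hold that form by construction. Nfkbib and Tnip2 did not hold it, whereas 50.8% of all windows and 53.5% of all genes did. The matched sites are printed 5′ to 3′ on the gene's strand with the match in capitals, so that the sites can be read beside the levels of the same genes.
Nfkbia, chr12:55492657-55492686 (minus strand), 29 to 20 bases upstream of the start: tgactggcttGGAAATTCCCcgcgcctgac
Nfkbie, chr17:45555584-45555613 (plus strand), 106 to 97 bases upstream: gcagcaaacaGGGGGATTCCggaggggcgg
Bcl3, chr7:19822734-19822763 (minus strand), 3 to 12 bases downstream: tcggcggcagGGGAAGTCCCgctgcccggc
Tnfaip3, chr10:19015516-19015545 (minus strand), 125 to 116 bases upstream: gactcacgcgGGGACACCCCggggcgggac
Tnfaip3, chr10:19015403-19015432 (minus strand), 12 to 3 bases upstream: aatttccatcGGAAATCCCCctgttggcaa
Tnip1, chr11:54962978-54963007 (minus strand), 58 to 47 bases upstream, where 4 overlapping matches merge into 12 letters: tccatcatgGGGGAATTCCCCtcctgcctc
Cyld, chr8:88696863-88696892 (plus strand), 155 to 146 bases upstream: ttgaccgagcGGAAAGTCCCttcagccagc

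A match is a string of letters and not a measured binding site. Of the 6 genes with a match, mt-CCs compared with fl-CCs had more Nfkbia, Nfkbie and Tnip1 and less Tnfaip3 and Cyld, and Bcl3 did not pass the test. With p53 R175H against EV, Nfkbia, Nfkbie, Bcl3 and Tnfaip3 were higher, and Tnip1 and Cyld did not pass.

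The deposited values are log2 RMA values, on which a difference of 1 is a doubling. They ran from 1.71 to 14.64 with a median of 5.59 on every array, and arrays of 1 group correlated at 0.994 to 0.996 across probe sets. Values below 5 on that scale are called near background here, by a level set for this work and not by detection calls. By that level 2 probe sets, Nfkbib 1446718_at and Cyld 1445213_at, were near background on all 12 arrays and 19 were not, so every gene had at least 1 probe set above it. Within a group the SD of the 21 probe sets had a median of 0.11, and its largest value was 0.53, for Cyld 1429201_at in mt-CCs.

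The comparison of mt-CCs with fl-CCs asks how a mutant p53 tumor line differs from a p53-deleted one. The inhibitors did not move as a block: 4 genes were higher in mt-CCs (Nfkbia, Nfkbib, Nfkbie and Tnip1), 3 were lower (Nfkbiz, Tnfaip3 and Cyld), and Bcl3 and Tnip2 did not pass the test. The arrays read bulk RNA, in which fewer expressing cells and less RNA per cell cannot be told apart. Of the 21 probe sets, 9 were higher and 5 lower (limma, Benjamini-Hochberg adjusted p of 0.05 or less over all 45037 probe sets, no limit on the fold change). These 14 are 66.7% of the members' probe sets, in a comparison in which 30.7% of all probe sets passed, 15.4% higher and 15.3% lower; per gene, counting each gene by its most significant probe set, 43.3% of all genes passed, 22.2% higher and 21.1% lower. All 5 probe sets of Nfkbia and both of Nfkbie are among the 9 higher ones, so genes are counted repeatedly in the share of probe sets. Groups did not overlap at 16 of the 21 probe sets, 11 higher and 5 lower, against 41.8% of all probe sets. The members' median difference was 0.26, beside -0.02 over all probe sets.

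In fl-CCs given human p53 R175H, set against the empty vector, the inhibitors that passed all moved upward. Nfkbia, Nfkbie, Nfkbiz, Bcl3 and Tnfaip3 were higher and no member was lower. These 5 of the 9 genes are 55.6%, beside 30.4% of all genes called, 15.3% higher and 15.1% lower. Of the 21 probe sets, 10 passed the limma test, which is 47.6%, in a comparison in which 20.3% of all probe sets passed and 10.2% were higher. Among these 10 are all 5 probe sets of Nfkbia and both of Nfkbie, so genes are counted repeatedly in that share. No member probe set was lower at an adjusted p of 0.05 or at an unadjusted p under 0.05 (limma), and without moderation of the variances the count was 0 as well. Groups did not overlap at 10 probe sets, all higher, against 36.9% of all probe sets. The members' median difference was 0.32, beside -0.01 over all probe sets.

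**Figure D1:**
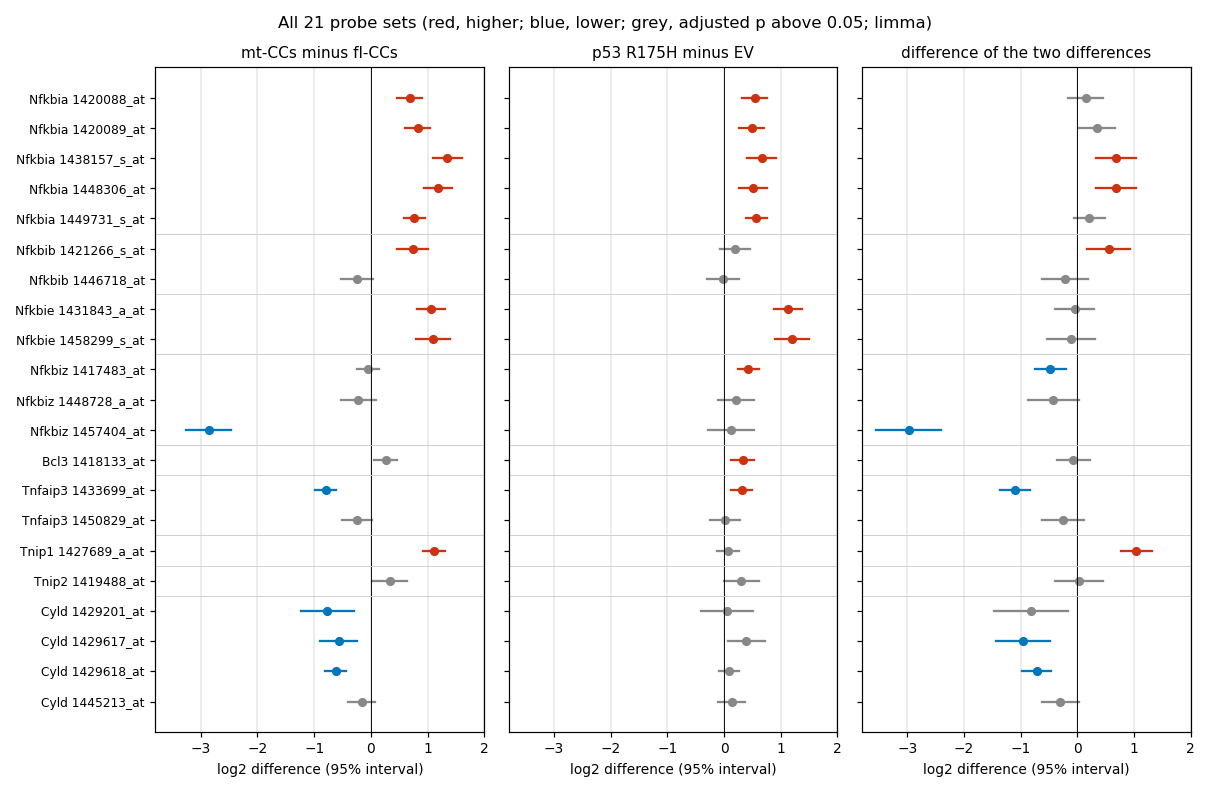
Log2 difference of each of the 21 probe sets (rows) with its 95% interval (limma, 3 arrays per group), for mt-CCs minus fl-CCs, for p53 R175H minus EV and for the difference between these differences; red is higher and blue lower at an adjusted p of 0.05 or less. In the first panel red and blue both occur (9 and 5 probe sets), in the second only red (10), and Nfkbiz 1457404_at, at -2.86, lies farthest from 0 in the first.

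The first group of members are the classical IκB proteins, which hold NFκB in the cytoplasm. Nfkbia encodes IκBα, the first to be resynthesized after activation. Its brightest probe set, 1420089_at, read 11.39, 11.53 and 11.47 in fl-CCs, 12.46, 12.24 and 12.17 in mt-CCs, 11.04, 11.24 and 11.14 with EV and 11.48, 11.71 and 11.69 with p53 R175H. All mt-CC arrays lay above all others, all EV arrays lay below all others, and the fl-CC and p53 R175H arrays overlapped. Between these lines Nfkbia was higher in mt-CCs by 0.83 ± 0.10 (SE) on the log2 scale, a fold of 1.78 (adjusted p = 5.07e-05, limma), and higher with p53 R175H than with EV by 0.49 ± 0.10 (adjusted p = 0.00523). The study names Nfkbia in a core set of NFκB genes picked on these arrays, so its direction between mt-CCs and fl-CCs is not independent evidence.

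The 5 probe sets of Nfkbia gave the same order of the extremes, with mt-CCs highest and EV lowest at each. Their pairwise Pearson r over the 12 arrays ran from 0.897 to 0.974, values that also carry the spacing of the 4 groups. Every probe set was higher in mt-CCs (0.69 to 1.34) and with p53 R175H (0.49 to 0.66), and all 10 differences passed the test. The difference of mt-CCs from fl-CCs and that of p53 R175H cells from EV cells are called effects from here on. The word assigns no cause, since mt-CCs and fl-CCs come from different tumors. The test of whether the effects differ separated the probe sets. At 1438157_s_at and 1448306_at the effect was higher in mt-CCs, each by 0.68 (SE 0.17 and 0.16, adjusted p = 0.00848 and 0.00747, limma). The other probe sets differed by 0.15 to 0.34 and did not pass. A probe set whose name ends in _s_at, as 2 of Nfkbia's do, can match several transcripts. In direct comparison mt-CCs exceeded p53 R175H cells at all 5 probe sets, by 0.31 to 0.95 (33.1% of all probe sets passed that comparison, 16.9% higher), and p53 R175H cells exceeded untransfected fl-CCs at 3 of 5, by 0.17 to 0.46 over the 5.

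Nfkbib encodes IκBβ, a slower relative of IκBα. Its probe set 1421266_s_at read 7.71, 8.05 and 7.76 in fl-CCs, 8.66, 8.62 and 8.46 in mt-CCs, 7.61, 7.57 and 7.72 with EV and 7.66, 8.06 and 7.75 with p53 R175H. The mt-CC arrays lay above all others, and the arrays of the other groups overlapped. The difference between mt-CCs and fl-CCs was 0.74 ± 0.12 (adjusted p = 0.000539, limma), and that between p53 R175H and EV 0.19 ± 0.12 (adjusted p = 0.35, 95% interval -0.08 to 0.46). The effects differed by 0.55 ± 0.17 (adjusted p = 0.0338, limma). That call was lost when any of 8 of the 12 arrays was left out (adjusted p from 0.0577 to 0.0811). Those arrays are mt-CCs replicates 1 and 2, fl-CCs 1 and 3, EV 1 and 3 and p53 R175H 1 and 3. The other probe set, 1446718_at, lay between 3.32 and 4.09 on all arrays, near background. The Nfkbib differences thus rest on an _s_at probe set, which can match several transcripts.

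Nfkbie encodes IκBε, which is induced late and damps a second wave of NFκB. It was higher in both settings, as Nfkbia was. At 1431843_a_at its EV level was itself below that of fl-CCs. Set against fl-CCs, p53 R175H cells were higher by 0.74 there. Probe set 1431843_a_at read 7.71, 7.79 and 7.62 in fl-CCs, 8.77, 8.67 and 8.89 in mt-CCs, 7.47, 7.09 and 7.41 with EV and 8.39, 8.57 and 8.38 with p53 R175H. None of the groups overlapped, and their order was mt-CCs, p53 R175H, fl-CCs and EV, each step passing the test (adjusted p = 0.0403, 0.00111 and 0.0453, limma). The difference was 1.07 ± 0.11 between mt-CCs and fl-CCs (fold 2.1, adjusted p = 1.34e-05) and 1.12 ± 0.11 between p53 R175H and EV (fold 2.18, adjusted p = 2.84e-05).

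The effects on Nfkbie differed by -0.05 (95% interval -0.4 to 0.29, adjusted p = 0.854, limma). A difference of more than 0.4 in either direction lies outside that interval. At 1458299_s_at, which followed 1431843_a_at at r = 0.987 over the 12 arrays, mt-CCs were higher by 1.09 ± 0.14 and p53 R175H cells by 1.20 ± 0.14, and the effects differed by -0.11 (95% interval -0.53 to 0.31). The step from p53 R175H to mt-CCs did not pass there (0.30, adjusted p = 0.115), nor did that from EV to fl-CCs (adjusted p = 0.0737).

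The second group are the atypical, nuclear IκB proteins, which bind NFκB dimers on DNA and can raise as well as lower transcription. Nfkbiz encodes IκBζ, which is needed for a set of secondary NFκB targets such as Lcn2 and Il6. Its 3 probe sets disagreed. The brightest, 1417483_at, read 11.10, 10.96 and 10.95 in fl-CCs, 11.07, 10.88 and 10.90 in mt-CCs, 10.71, 10.64 and 10.79 with EV and 11.09, 11.20 and 11.14 with p53 R175H. The fl-CC and mt-CC arrays overlapped, while every EV array lay below every array of the other groups. At 1457404_at the values were 9.10, 9.51 and 9.13 in fl-CCs, 5.94, 6.42 and 6.79 in mt-CCs, 8.93, 8.98 and 9.21 with EV and 9.08, 9.23 and 9.19 with p53 R175H. Here mt-CCs alone were low and the other groups overlapped.

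Between mt-CCs and fl-CCs, Nfkbiz therefore fell by 2.86 on the log2 scale at 1457404_at (SE 0.19, fold 7.27, adjusted p = 1.55e-07, limma), and differed by -0.05 at 1417483_at (adjusted p = 0.727, 95% interval -0.24 to 0.14) and by -0.22 at 1448728_a_at (adjusted p = 0.308, 95% interval -0.53 to 0.1). The call of Nfkbiz as lower in mt-CCs rests on the first of these alone. With p53 R175H against EV, only 1417483_at passed, at 0.43 ± 0.09 (adjusted p = 0.00396), with 0.21 at 1448728_a_at and 0.12 at 1457404_at. The probe sets 1417483_at and 1448728_a_at correlated at 0.555 over the 12 arrays, whereas 1457404_at correlated with them at 0.0156 and -0.062. Which transcripts the 3 probe sets match was not tested, so a level for the whole gene is not given.

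**Figure D2:**
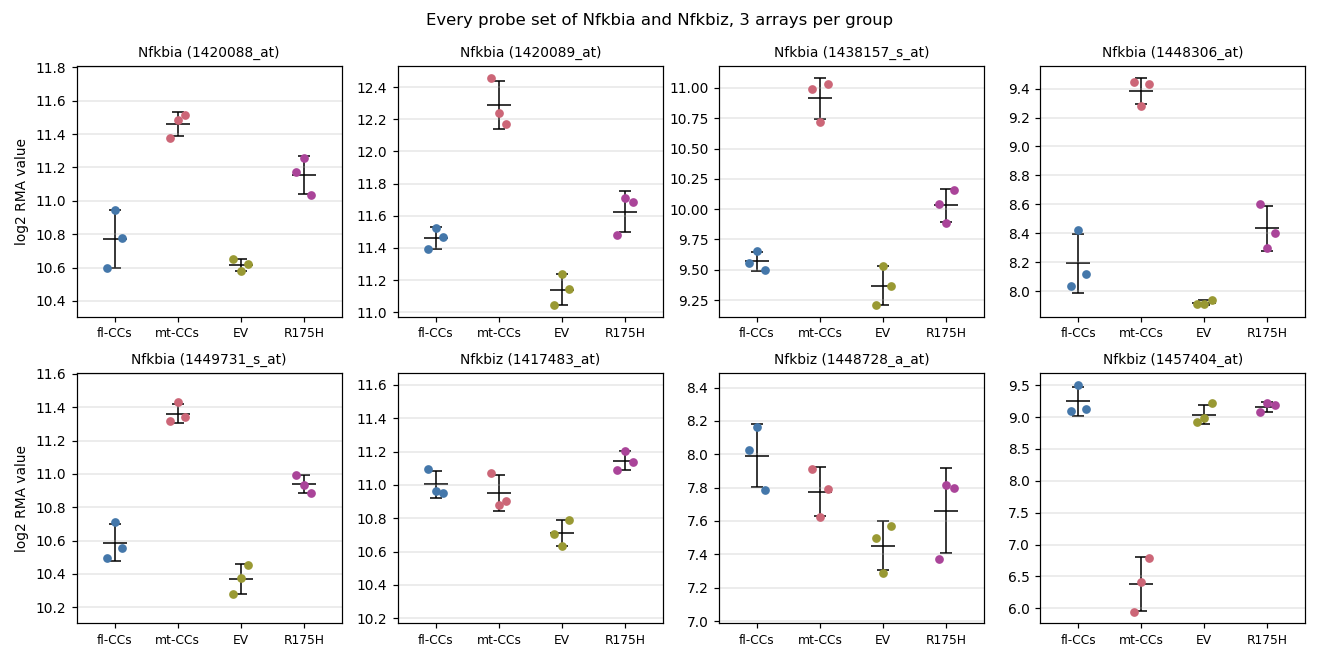
Log2 RMA value of each probe set of Nfkbia (5 panels) and Nfkbiz (3 panels) on the 12 arrays; points are arrays, the long bar is the group mean and the whiskers the SD (n = 3), and each panel has its own vertical range. The 5 Nfkbia panels share a pattern with mt-CCs highest and EV lowest, and only the panel of Nfkbiz 1457404_at shows mt-CCs far below the rest, at 5.94 to 6.79.

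Bcl3 is the nuclear partner of p50 and p52 homodimers and is often an activator. Its probe set 1418133_at read 8.87, 9.12 and 8.99 in fl-CCs, 9.37, 9.20 and 9.19 in mt-CCs, 8.41, 8.41 and 8.51 with EV and 8.79, 8.86 and 8.66 with p53 R175H. The 4 groups did not overlap, in the order mt-CCs, fl-CCs, p53 R175H and EV. Neither upper step passed (0.26, adjusted p = 0.0564, and 0.22, adjusted p = 0.15, limma), and the step from EV to p53 R175H did (0.33 ± 0.09, adjusted p = 0.0285).

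With p53 R175H, Bcl3 thus rose from a vector level that was itself lower than that of untransfected fl-CCs by 0.55, and did not reach the fl-CC mean. The p53 R175H call was lost with the adjusted p at 0.0851 without EV replicate 1, 0.0869 without EV replicate 2, 0.0775 without p53 R175H replicate 1 and 0.105 without p53 R175H replicate 2. It was also lost with the replicate number as a block (adjusted p = 0.0504). Without fl-CCs replicate 2, Bcl3 passed between mt-CCs and fl-CCs as well (0.32, adjusted p = 0.0392). The effects on Bcl3 differed by -0.07 (95% interval -0.36 to 0.22).

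The third group act on the ubiquitin chains upstream of the IκB kinase. Tnfaip3 encodes A20, which edits and removes those chains and is a classical NFκB target. At 1433699_at it read 9.93, 10.04 and 10.16 in fl-CCs, 9.19, 9.25 and 9.31 in mt-CCs, 9.97, 10.11 and 10.04 with EV and 10.41, 10.35 and 10.31 with p53 R175H. The mt-CC arrays were the lowest and the p53 R175H arrays the highest, neither overlapping any other group, while fl-CCs and EV overlapped with equal means of 10.04. Tnfaip3 fell by 0.79 on the log2 scale between fl-CCs and mt-CCs (SE 0.09, adjusted p = 1.66e-05, limma) and rose by 0.32 ± 0.09 with p53 R175H against EV (adjusted p = 0.0209).

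The effects on Tnfaip3, of opposite direction, differed by -1.11 ± 0.12 (adjusted p = 2.56e-05, limma), and the comparisons behind them share no arrays. Its rise with p53 R175H lost the call without EV replicate 1 (adjusted p = 0.0812), EV replicate 3 (0.0556), p53 R175H replicate 1 (0.0708) or p53 R175H replicate 2 (0.0542); the difference there stayed between 0.28 and 0.32. The second probe set, 1450829_at, lay close to background, at 4.91 to 5.70, and differed by -0.25 (adjusted p = 0.154) in mt-CCs and by 0.01 (adjusted p = 0.96) with p53 R175H.

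Tnip1 encodes ABIN1, an adaptor that brings A20 to its substrates. It read 9.90, 10.19 and 10.09 in fl-CCs, 11.13, 11.17 and 11.20 in mt-CCs, 10.26, 10.20 and 10.22 with EV and 10.22, 10.34 and 10.33 with p53 R175H. The mt-CC arrays lay above every other array and the fl-CC arrays below every other array, and EV and p53 R175H overlapped. The difference between mt-CCs and fl-CCs was 1.11 ± 0.09 (fold 2.16, adjusted p = 9.88e-07, limma), and that between p53 R175H and EV 0.07 (adjusted p = 0.671, 95% interval -0.12 to 0.26). The effects differed by 1.04 ± 0.12 (adjusted p = 5.21e-05, limma). Tnip1 and Tnfaip3, whose products act together, thus lay on opposite sides in mt-CCs.

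Tnip2 encodes ABIN2, a relative of ABIN1 that also binds the kinase TPL2. It read 6.63, 6.67 and 6.65 in fl-CCs, 6.73, 7.09 and 7.12 in mt-CCs, 6.54, 6.52 and 6.36 with EV and 6.72, 6.53 and 7.08 with p53 R175H. The mt-CC arrays lay above the fl-CC arrays, and the p53 R175H arrays overlapped all groups. It passed neither comparison, with differences of 0.33 ± 0.14 (adjusted p = 0.1, limma; 95% interval 0.02 to 0.63) and 0.30 ± 0.14 (adjusted p = 0.167; 95% interval 0 to 0.61). Without mt-CCs replicate 1, the lowest array of its group, the first difference was 0.45 and passed (adjusted p = 0.0317).

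Cyld encodes a deubiquitinase that removes signaling ubiquitin chains, and is a tumor suppressor. At 1429618_at it read 10.02, 9.83 and 9.95 in fl-CCs, 9.27, 9.31 and 9.36 in mt-CCs, 9.89, 9.82 and 9.74 with EV and 9.84, 9.94 and 9.95 with p53 R175H. The mt-CC arrays lay below all others and the other groups overlapped. Cyld fell by 0.62 on the log2 scale between fl-CCs and mt-CCs (SE 0.08, fold 1.54, adjusted p = 9.76e-05, limma) and differed by 0.09 between p53 R175H and EV (adjusted p = 0.522, 95% interval -0.09 to 0.27). The effects differed by -0.71 ± 0.12 (adjusted p = 0.000633).

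The other Cyld probe sets above background were lower in mt-CCs too, with differences of -0.57 at 1429617_at (adjusted p = 0.0124, limma) and -0.77 at 1429201_at (adjusted p = 0.0152). At 1429201_at the mt-CC arrays read 5.76, 6.66 and 6.68, the first standing apart, and the call was lost without fl-CCs replicate 2 (adjusted p = 0.0594) or with only the groups compared in the fit (0.0506). With p53 R175H none of the 4 passed, although 1429617_at, at 0.39 (adjusted p = 0.0979), did so without p53 R175H replicate 2 (0.54, adjusted p = 0.0308). The effects differed by -0.96 ± 0.21 at 1429617_at (adjusted p = 0.00517) and by -0.82 at 1429201_at (adjusted p = 0.0633, and 0.0381 and 0.0345 without mt-CCs replicates 2 and 3).

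**Figure D3:**
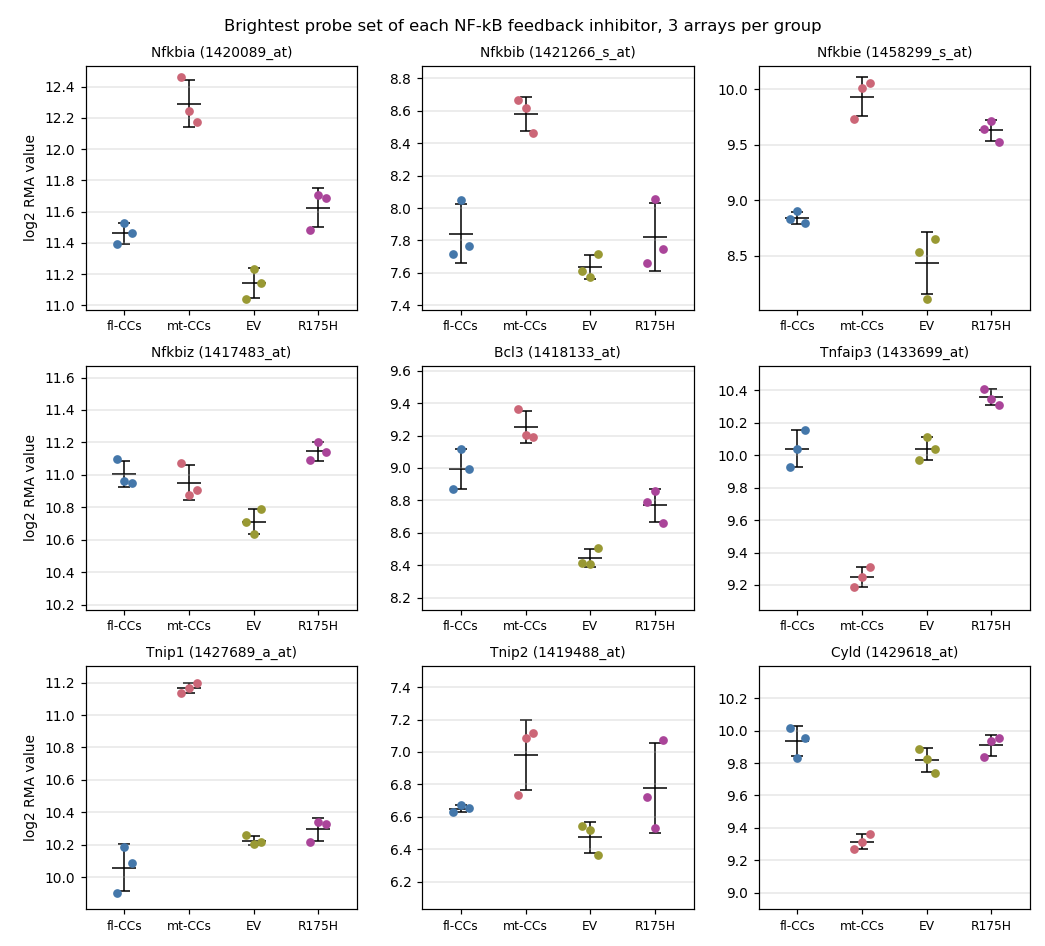
Log2 RMA value of the brightest probe set of each inhibitor on the 12 arrays; points are arrays, the long bar is the group mean and the whiskers the SD (n = 3), and each panel has its own vertical range. The mt-CC arrays are the highest for Nfkbia, Nfkbib, Nfkbie, Bcl3 and Tnip1 and the lowest for Tnfaip3 and Cyld, and the EV arrays are the lowest for Nfkbia, Nfkbie, Nfkbiz and Bcl3.

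The difference between the effects (mt-CCs against fl-CCs, and p53 R175H against EV) was tested in the same fit. It passed at 9 of the 21 probe sets, 4 with the effect higher in mt-CCs and 5 with it lower, which is 42.9% beside 26.8% of all probe sets (13.6% higher and 13.1% lower). Per gene the effect was higher in mt-CCs for Nfkbia, Nfkbib and Tnip1 and lower for Nfkbiz, Tnfaip3 and Cyld, in a comparison that 39.4% of all genes passed, 20.1% higher and 19.3% lower. Nfkbie, Bcl3 and Tnip2 did not pass. At the brightest probe set of each gene 2 were higher and 3 lower, since Nfkbia 1420089_at did not pass (0.34, adjusted p = 0.107, limma). The groups behind these effects also differ in more than p53. The mt-CCs and fl-CCs come from different tumors, so line and allele cannot be told apart there. The p53 R175H and EV cells come from the same line but were transfected separately. Differences that arose between these transfected cultures cannot be told apart from the transgene.

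The empty vector cells themselves differed from fl-CCs. Nfkbie, Nfkbiz and Bcl3 were lower with EV and no inhibitor was higher. These 3 of the 9 genes are 33.3%, beside 19.6% of all genes called, 10.4% higher and 9.2% lower. Of the 21 probe sets, 4 were lower, which is 19%, beside 12.1% of all probe sets called, 6.45% higher and 5.66% lower (limma). None was higher, also at an unadjusted p under 0.05 and without moderation of the variances, and 8 were lower at an unadjusted p under 0.05. Groups did not overlap at 11 probe sets, 10 of them lower, against 30.6% of all. The calls were Bcl3 at -0.55 ± 0.09 (adjusted p = 0.00255), Nfkbiz 1448728_a_at at -0.54 ± 0.14 (0.0304), Nfkbie 1431843_a_at at -0.39 ± 0.11 (0.0453) and Nfkbiz 1417483_at at -0.29 ± 0.09 (0.0499). The vector and G418, which the labels give for the transfected cells, cannot be told apart in this comparison.

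Of the 4 calls with EV, Bcl3 held in each of the 21 alternatives run without a fold limit, and the others did not. The adjusted p of Nfkbie 1431843_a_at exceeded 0.05 with 10 of the 12 arrays left out in turn (up to 0.162, without EV replicate 2), that of Nfkbiz 1417483_at with 11 (up to 0.159, without EV replicate 2) and that of Nfkbiz 1448728_a_at with 4 (0.0654 without EV replicate 1, 0.0851 and 0.108 without fl-CCs replicates 1 and 2, and 0.112 without EV replicate 2). Nfkbia differed by -0.16 to -0.32 over its 5 probe sets and none passed. In alternatives 1420089_at passed 4 times, without mt-CCs replicate 1 (0.0441), with array weights (0.0302), with an intensity trend (0.0109) and with dim probe sets left out (0.0319), and 1449731_s_at passed once, with the trend (0.0455). Nfkbie 1458299_s_at also passed in 4, without EV replicate 3 (0.045), with array weights (0.0412), with the trend (0.0321) and with dim probe sets left out (0.0416).

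Because the EV arrays enter both comparisons, p53 R175H cells were also set against untransfected fl-CCs, for which the labels state no G418. There 6 of the 21 probe sets were higher and none lower, which is 28.6% beside 15% of all probe sets (7.77% higher and 7.25% lower). They belong to Nfkbia (3 probe sets), Nfkbie (both probe sets) and Tnfaip3, so genes are counted repeatedly in that share. Nfkbie was higher by 0.74 ± 0.11 at 1431843_a_at (adjusted p = 0.00111, limma) and Tnfaip3 by 0.32 ± 0.09 at 1433699_at (adjusted p = 0.0277). Nfkbiz 1417483_at differed by 0.14 (adjusted p = 0.341) and Bcl3 by -0.22. At an unadjusted p under 0.05, 7 probe sets were higher and 2 lower.

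For each inhibitor the genes with the most similar pattern over the 12 arrays were looked up among 12607 probe sets, as a description without a test. The arrays form 4 groups, so a high Pearson r says mainly that group means are spaced alike. The nearest were Ptpn1 (r = 0.993) and Alkbh6 (0.985) for Nfkbia, Dctn6 (0.968) and Dbp (0.967) for Nfkbib, Sdc2 (0.98) and Slc49a4 (0.977) for Nfkbie, and Brd3 (0.974) and Arhgap1 (0.973) for Nfkbiz 1417483_at. They were Cracdl (0.963) and St3gal6 (0.96) for Bcl3, Ppp1r26 (0.992) and Carmil1 (0.991) for Tnfaip3, Cxcl12 and Tram2 (both 0.991) for Tnip1, Mul1 (0.92) and Bloc1s6 (0.915) for Tnip2, and Ackr4 (0.987) and Shmt1 (0.985) for Cyld. No inhibitor was among the nearest of another. Of the inhibitors compared with each other at their brightest probe sets, the highest r values were those of Nfkbia with Nfkbib (0.938), Nfkbib with Tnip1 (0.908), Tnfaip3 with Cyld (0.907) and Nfkbia with Tnip1 (0.878). The lowest were those of Tnip1 with Cyld (-0.951), Nfkbib with Cyld (-0.879) and Tnip1 with Tnfaip3 (-0.856).

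Other negative regulators of NFκB were read from a fixed list of 22 genes, 21 of them measured. Between mt-CCs and fl-CCs, 9 were higher, 4 lower and 8 did not pass, a called share of 61.9% beside the 43.3% of all genes, with a median of 0.23 beside -0.01. Sigirr, an inhibitory receptor of the interleukin-1 family, was higher by 1.25, and Nlrc3 by at least 0.66, since its probe set lay near background in fl-CCs. The call of Trim27 comes from 1457051_at, also near background in fl-CCs (at least 0.54), while its brightest probe set, 1438376_s_at, differed by 0.03 (means of 11.67 and 11.64; adjusted p = 0.871, limma). On the log2 scale Dusp1, a phosphatase of MAP kinases, fell by 1.45, Rnf11, a partner of A20, fell by 0.87 and Tollip fell by 0.65. With p53 R175H, 5 were higher and 6 lower (52.4% beside 30.4% of all genes, 15.3% higher and 15.1% lower). Nlrc3 was higher by at least 1.11. Zc3h12a, the RNase Regnase-1, was higher by 0.98 at 1427348_at and differed by 0.19 at 1443993_at (adjusted p = 0.499, limma). Commd1, which promotes the loss of RelA, fell by 1.03 on the log2 scale. Irak3, an inhibitory kinase-like protein, was lower too, with a mean of 4.74 against 6.32 and 2 of the 3 p53 R175H arrays near background. With EV against fl-CCs, 5 were higher and none lower among the 21 (limma; 23.8% beside 19.6% of all genes, 10.4% higher and 9.2% lower), where up to 2 were lower in alternatives.

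On the activating side, 48 of 53 listed genes were measured, from receptors to the IκB kinase and the NFκB subunits. Between mt-CCs and fl-CCs, 19 were higher, 7 lower and 22 did not pass (54.2% beside 43.3% of all genes). The adaptor Traf1 was higher by 2.93 and the receptors Tlr4 by 2.45 and Il1rap by at least 1.37, while on the log2 scale the adaptor Card10 fell by 1.64 and Il1r1 fell by 1.16. Malt1 was called lower at 1456126_at, with a mean of 4.36 against 6.02 and 2 of the 3 mt-CC arrays near background, and differed by -0.13 at 1456429_at (adjusted p = 0.57, limma). With p53 R175H, 18 were higher and 9 lower (56.2% beside 30.4%). Traf1 was higher by 1.13 and Tlr2 by 1.07, and the kinase Map3k14 fell by 0.69. Malt1 was called lower there at 1445068_at, which was near background in both groups (means of 3.31 and 4.47), so no fold is given. With EV, 2 were higher and 6 lower (16.7% beside 19.6%).

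The listed targets of NFκB other than the inhibitors were 30 measured of 32, some of which (Traf1, Relb, Nfkb2 and Birc3) are also in the activator list. Between mt-CCs and fl-CCs 15 were higher and 5 lower (66.7% beside 43.3% of all genes), with p53 R175H 15 were higher and 4 lower (63.3% beside 30.4%), and with EV 3 were higher and 11 lower (46.7% beside 19.6%). In mt-CCs the chemokine gene Ccl2 was higher by 4.69, Lcn2 by 3.30 and Ccl5 by at least 2.5, and Csf1, named here after its value was seen, by 3.13, whereas Ccl20 fell by 3.17, Cfb fell by 2.39 and the adhesion molecule Icam1 fell by 1.12 on the log2 scale. The κB consensus was found in the promoter windows of 11 of the 23 target genes with a window, 8 of 43 activators and 3 of 15 other inhibitors.

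Markers of cell types were read on the same arrays, since mt-CCs stood farther from the other groups (r 0.959 to 0.962) than these did from each other (0.983 to 0.99). The mean log2 value of 12 epithelial markers was 10.08 to 10.16 in fl-CCs, 9.93 to 9.97 with EV, 9.91 to 10.02 with p53 R175H and 7.95 to 8.05 in mt-CCs, where 9 of the 12 were lower than in fl-CCs and none higher. Epcam had a mean of 6.88 in mt-CCs against 9.78 in fl-CCs, and Cdh1 10.01 against 12.25. Krt19, a keratin of the pancreatic duct, was at 13.23 to 13.72 on every array, and Cldn4 and Esrp1 were near background on all of them. The mean of 12 fibroblast markers was 5.25 to 5.39 in mt-CCs and 4.18 to 4.47 elsewhere, with 6 higher and 1 lower in mt-CCs than in fl-CCs. Col1a1 had a mean of 8.74 in mt-CCs against 5.59 in fl-CCs. Col1a2, Col3a1 and Dcn were near background on every array of the other groups, but not on every mt-CC array. Lum, Pdpn, Postn, Fap and Thy1 were near background on every array. The mean of 11 leukocyte markers was 4.59 to 4.68 in mt-CCs and 4.31 to 4.45 elsewhere, with 2 higher and 1 lower in mt-CCs than in fl-CCs. Of these markers 7 were near background on every array, among them Ptprc, which defines leukocytes, and Cd68, Csf1r, Cd74 and Coro1a were not. The 6 endothelial markers had means of 3.42 to 3.75, with 1 higher and 3 lower in mt-CCs than in fl-CCs. The epithelial and fibroblast means moved with the differences of mt-CCs at Nfkbia, Nfkbib, Nfkbie, Nfkbiz, Tnfaip3, Tnip1 and Cyld. The part of these markers in those differences was not tested.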

How the data were processed

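RNA from the 4 groups of cultured cells was hybridized to 12 arrays. The authors ran quality control in affy and then RMA, and deposited log2 values (median 5.59 on every array), so no further normalization was applied. RMA makes the arrays share 1 distribution, so a shift of the whole transcriptome cannot be seen. Of 45101 probe sets, 64 AFFX controls were left out and 45037 entered lmFit and eBayes of limma 3.58.1 (R 4.3.3), fitted to group means over all 12 arrays, with Benjamini-Hochberg adjustment over all of them; a call needs an adjusted p of 0.05 or less, the threshold of the methods, which name Partek and do not say which arrays entered. Gene counts follow the methods, with the most significant probe set standing for a gene.

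Names came from the platform annotation (34945 probe sets with 1 symbol, 932 with several, 9160 with none), checked against RefSeq GRCm38.p6 (34754 matched, 0 changed). A difference of a called gene whose lower group lay under log2 5 on all arrays is a bound, written "at least": the higher mean minus 5. The named genes are all members, per member the pair of genes with the highest r (mean of at least 5, group means spanning at least 0.5), and in each list the 3 largest rises and 3 largest falls in mt-CCs (with p53 R175H, 2 and 2 of the inhibitors and activators) among called genes whose groups do not overlap, ranked by the fitted difference, also where the text gives a bound. The members and lists were chosen with earlier results of these data known. The procedure was tested on simulated data. No sample was dropped or imputed, and the number of arrays limits the precision. Samples with the same replicate number did not deviate together over all probe sets. The alternatives changed the arrays that entered (the compared groups, or each array left out), the model (replicate block, no moderation, intensity trend, array weights), the probe sets (dim ones left out, controls kept, the brightest per gene), the normalization (median centring, quantiles) and the fold limit.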

Additional observations from a re-analysis of the deposited data

Results flagged for a closer look

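The probe sets below had an effect in mt-CCs against fl-CCs that differed from the effect of p53 R175H against EV, by the test of the difference itself (limma, adjusted p of 0.05 or less over all 45037 probe sets, of which 26.8% passed). Nfkbia differed by 0.68 at 1438157_s_at and by 0.68 at 1448306_at, Nfkbib by 0.55 at 1421266_s_at and Tnip1 by 1.04, all with the higher effect in mt-CCs. Nfkbiz differed by -0.48 at 1417483_at and by -2.98 at 1457404_at, Tnfaip3 by -1.11 at 1433699_at, and Cyld by -0.96 at 1429617_at and by -0.71 at 1429618_at, all with the lower effect in mt-CCs. At Tnfaip3 the effects were of opposite sign (-0.79 and 0.32) and passed the test each. At Nfkbiz the effects were -2.86 and 0.12 at 1457404_at, and -0.05 and 0.43 at 1417483_at.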

How the results depend on the processing

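No difference of a member probe set changed sign with its call under any alternative. Of the calls, 13 of 14 between mt-CCs and fl-CCs, 8 of 10 between p53 R175H and EV and 1 of 4 between EV and fl-CCs held under each of 21 alternatives. For the difference of the effects, 8 of 9 held under each of 20. None of these alternatives sets a fold limit, which is given below. The calls that did not hold are Cyld 1429201_at in mt-CCs, Bcl3 and Tnfaip3 with p53 R175H, Nfkbie and both Nfkbiz probe sets with EV, and Nfkbib for the difference (also 0.0532 unmoderated). Bcl3 passed between mt-CCs and fl-CCs unmoderated (0.0417), with an intensity trend (0.0413) and with dim probe sets left out (0.0281). Some gene counts change with the brightest probe set of each gene in place of the most significant. In mt-CCs 4 genes were then higher and 2 lower, as Nfkbiz did not pass. With p53 R175H 5 were higher, and with EV 2 were lower, as Nfkbie did not pass. For the difference 2 were higher and 3 lower, as Nfkbia did not pass.

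The member probe sets lower with EV, 4 as reported, were 2 with only the groups compared in the fit, 2 unmoderated, 7 with an intensity trend and 1 to 4 with an array left out, and the genes, 3 as reported, 1 to 3. The genes higher with p53 R175H, 5 as reported, were 3 to 5 with an array left out (3 without EV replicate 1 or p53 R175H replicate 1). The cause was not tested.

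With the replicate number as a block, the member probe sets and genes lower with EV were 1 and 1, those higher with p53 R175H 9 and 4, and those of mt-CCs 9 higher and 5 lower, as without it. Deviations of same-numbered arrays correlated at -0.0897 to 0.0582 over all probe sets, and 2 of 12 arrays correlated best with their own number. Such correlations cannot show whether a smaller set of probe sets moved together, and what else same-numbered samples share was not tested.

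A fold limit of 1 on the log2 scale leaves fewer by construction. In mt-CCs it left 5 member probe sets higher and 1 lower, and 3 genes higher (Nfkbia, Nfkbie and Tnip1) and 1 gene lower (Nfkbiz), of 2002 higher and 1740 lower in all; with p53 R175H 2 probe sets and 1 gene (Nfkbie) higher, of 822 higher and 730 lower in all; with EV 0 probe sets and 0 genes lower, of 552 higher and 497 lower in all; and for the difference 1 probe set higher, 2 lower, 1 gene higher (Tnip1) and 2 genes lower (Nfkbiz and Tnfaip3), of 2640 higher and 2375 lower in all. With 3 arrays a group, small differences at dim probe sets are least certain.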
